A study of Mus musculus with 24 samples.

Results

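AKT and c-Met plasmids were added to thioacetamide (TAA) injury in 4 livers (SB/AKT/c-Met + TAA), which were compared with 4 livers given TAA and no oncogene (SB + TAA). They are 8 of the 24 livers of the series and were chosen by their sample titles alone. All mice were male C57BL/6JAusb, aged 14 to 15 weeks at a hydrodynamic tail vein injection, in which a large fast volume carries plasmid into hepatocytes. Every mouse received 0.8 µg of the SB plasmid, which encodes the Sleeping Beauty transposase, and the SB/AKT/c-Met mice received 10 µg of a myr-AKT plasmid and 10 µg of a c-Met plasmid with it. From 8 to 10 days later both groups were given 10 to 11 intraperitoneal injections of TAA over 5 to 6 weeks, starting with a dose of 100 mg/kg and continuing with 200 mg/kg. The SB + saline livers (n = 4) and SB/AKT/c-Met + saline livers (n = 3), which received the same plasmids and saline instead of TAA, are used below for the same contrast without injury. In these 4 groups AKT and c-Met were always given together, so their contributions cannot be told apart there. The series also holds SB/AKT/NRas livers with saline (n = 4) and with TAA (n = 5). They received AKT and NRas plasmids without c-Met and share the statistical model used below. Each library is the liver tissue of 1 mouse, in which transfected and untouched cells are mixed. Fewer cells of a type and less RNA per cell cannot be told apart in such samples.

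MET is the receptor tyrosine kinase for hepatocyte growth factor, and AKT is the kinase that carries phosphatidylinositol 3-kinase signals to glucose use, lipid storage, protein synthesis and survival. Myristoylated AKT is held at the membrane and is active without a growth factor. TAA is bioactivated by cytochrome P450 enzymes in the hepatocytes around the central vein and injures that zone first, so both the enzyme genes and the zone genes of the liver are of interest when oncogenes are added to it.

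The 8 libraries held 2571404 to 3244732 counted molecules, in ranges that overlap between the groups, and 16838 to 19026 genes with a count. Of 53467 genes, 19381 reached 0.5 CPM (counts scaled to a common library size) in at least 2 of the 24 libraries and were tested. The defining hepatocyte markers were abundant, and the summed level of 14 of them ranged from 74010 to 101500 CPM with the oncogenes and from 102100 to 131800 CPM without, so every liver with the oncogenes was below every liver without them. No single hepatocyte marker passed the test (0 of 14, edgeR, 1 upwards and 2 downwards at an unadjusted p under 0.05), and the part of the lower sum in the results below was not tested. SB + TAA 4 stood apart. Its 31 skeletal muscle transcripts summed to 14100 CPM, while the other 7 livers held 26.9 to 55.8 CPM. The mean leading log2 distance over 500 genes was 3.41 between this liver and the other SB + TAA livers and 1.96 among those others.

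The human MET transgene was detected in all 4 SB/AKT/c-Met + TAA livers, with 2, 14, 19 and 31 counts in replicates 1 to 4, and had 0 counts in the 4 SB + TAA livers. In CPM these are 0.768, 4.93, 5.83 and 10.9, at least 23.8-fold above the limit that 3 counts over the SB + TAA group would set (adjusted p = 0.00839, edgeR quasi-likelihood test with Benjamini-Hochberg adjustment over all genes tested). SB/AKT/c-Met + TAA 1 is the lowest of the 4 and replicate 4 the highest, and no liver with the plasmid overlaps a liver without it. Mouse Met stood at 33, 26.4, 30.4 and 24.6 CPM against 29.9, 32, 22.6 and 17.3 CPM, a log2 fold change of 0.18 ± 0.20 (SE) that did not pass (adjusted p = 0.849). Its ligand Hgf had 11.9, 11.3, 12.9 and 9.83 CPM against 9.75, 5.13, 7.34 and 12.2 CPM (0.40 ± 0.29, adjusted p = 0.719), and mouse Akt1 had 18.1, 23.9, 16.6 and 16.8 CPM against 19.8, 16.2, 21.4 and 16.5 CPM (0.03 ± 0.27, adjusted p = 0.998). The groups overlap for all 3 mouse genes.

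Between SB/AKT/c-Met + TAA and SB + TAA, 77 of 19381 genes had an adjusted p under 0.05 and a log2 fold change beyond 1. With the oncogenes 52 were higher, the human MET transgene among them, and 25 were lower (0.397% called, 0.268% as increases and 0.129% as decreases). Of these decreases 24 had their highest value in SB + TAA 4. The increases had fitted log2 fold changes from 1.06 (Tkt) to 4.56 (S100g) in the 43 genes with more than 3 counts in the SB + TAA group, with a median of 2.33. In 51 of the 52, the 4 livers with the oncogenes lay above the 4 livers without them, and Acsm4 was the exception. The mean of the SB/AKT/NRas + TAA livers, given AKT without c-Met, was also above all 4 SB + TAA livers in 51 of the 52. The exception was human MET, with a mean of 0 CPM in the SB/AKT/NRas + TAA livers. The 52 genes were called against the same SB + TAA livers, and the share of all genes with such a mean was not computed. What the c-Met plasmid contributed to the increases was not tested. Separation of the SB/AKT/c-Met + TAA livers from the SB + TAA livers was also counted over all genes. Over all genes tested such a separation was seen upwards in 2.53% and downwards in 1.95%, and the median log2 fold change of all genes was −0.01. Without SB + TAA 4, 40 genes were called, 39 higher (0.204%) and 1 lower (0.00522%). Of the 52 increases 35 were called again, and all 52 kept a positive log2 fold change. Of the 17 others, 16 missed the adjusted p and Tkt, with an adjusted p of 0.0117, had a log2 fold change of 0.98, just under 1. When each of the 8 livers was left out in turn, 25 increases were called every time. They include Serpina7, S100g, Nt5e, Maoa, Aldh3a2, Cyp2a4, Cyp2b9, Abcc4, Cidea, Cidec, Cbr3, Slc13a3, Orm2, Gpc3 and human MET. limma-voom called 34 of the 52, and of the genes described below it did not call Cidea, Cidec, Mogat1, Gpc3, Slc1a4, Orm3, St14 and Glul (adjusted p from 0.0707 to 0.289).

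The called increases contained 3 cytochrome P450 genes, 3 lipid droplet genes, 4 genes of the perivenous zone, a drug conjugate exporter and several secreted proteins, while no list of immune, stromal, biliary, cell cycle or mitochondrial genes had more than 1 member past the test. The lists below were written from known function, but lists and members were chosen with earlier results of these data known. The 0.268% of all genes that rose is given for scale only, and no list count is a test against it. For counts at an unadjusted p under 0.05 the shares of all genes were 4.41% upwards and 4.5% downwards.

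Cytochrome P450 enzymes oxidise steroids, fatty acids, drugs and toxicants, TAA among them. Of 57 members tested, 3 rose, none fell and 11 had an unadjusted p under 0.05 in the upward direction, with a list median of 0.11 (0.05 without SB + TAA 4). The 3 were Cyp2a4, Cyp2b9 and Cyp2a5. Cyp2a4 (ENSMUSG00000074254, chromosome 7, 26307169 to 26315088, GRCm38), a steroid hydroxylase that is higher in female than in male mouse liver, stood at 436, 619, 319 and 304 CPM with the oncogenes and at 20.5, 12.2, 15 and 50.6 CPM without. The lowest liver with the oncogenes was thus several times the highest without them. The log2 fold change was 4.07 ± 0.57 (SE, adjusted p = 0.000271). Cyp2b9 (ENSMUSG00000040660, chromosome 7, 26173411 to 26210661), also female-biased, had 5.38, 27.4, 22.4 and 12.6 CPM, and 2 counts in all of SB + TAA, both in SB + TAA 4. The ratio was 109-fold (95% counting interval 29.7 to 902), with an adjusted p of 0.000494. Cyp2a5 (ENSMUSG00000005547, chromosome 7, 26835305 to 26843548), the mouse coumarin and nicotine hydroxylase, had 870.0, 1331, 601 and 410.0 CPM against 106, 254, 127 and 109.5 CPM, the highest control being SB + TAA 2. Its log2 fold change was 2.43 ± 0.45 (adjusted p = 0.0069), and the call was lost without SB/AKT/c-Met + TAA 2 (adjusted p = 0.057). Cyp2e1 and Cyp1a2, well-known perivenous enzymes, had log2 fold changes of 0.64 and 0.23 and did not pass (adjusted p = 0.624 and 0.933). Of 40 growth hormone and sex-biased liver genes 2 rose and none fell. In that list 5 members had an unadjusted p under 0.05 upwards and 2 downwards, and the median was 0.21. A shift towards a female pattern was not tested.

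Cyp2a4 and Cyp2a5 are close relatives on chromosome 7, and their proximal promoters are shown because both genes rose under TAA and part of their sequence is shared. The 250 bases before each start site (RefSeq, GRCm38.p6) are 98.4% equal over 249 aligned positions, and capitals mark the 4 positions that differ. The first is chr7:26306942-26307191 and the second chr7:26835089-26835338, both on the plus strand. The RefSeq start of each gene lies a short way inside the gene bounds given above, which come from the deposited table.
Cyp2a4: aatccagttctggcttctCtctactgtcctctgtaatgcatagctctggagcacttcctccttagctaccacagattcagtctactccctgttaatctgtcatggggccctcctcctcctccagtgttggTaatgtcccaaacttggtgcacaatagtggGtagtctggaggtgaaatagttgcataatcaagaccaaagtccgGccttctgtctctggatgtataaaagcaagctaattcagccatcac
Cyp2a5: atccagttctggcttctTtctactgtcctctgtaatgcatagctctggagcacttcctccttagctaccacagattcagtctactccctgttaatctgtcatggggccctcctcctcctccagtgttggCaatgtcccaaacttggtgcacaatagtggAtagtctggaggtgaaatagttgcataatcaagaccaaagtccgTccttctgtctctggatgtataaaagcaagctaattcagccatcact
The saline livers are outside the contrast that called these genes, but they share its filter and its estimate of the spread. In them Cyp2a4 stood at 3.54 ± 3.08 CPM (SD, n = 4) with SB and at 97.4 ± 95.7 CPM (SD, n = 3) with the oncogenes. The saline log2 fold change of Cyp2a4 was 4.76 (adjusted p = 0.00051, edgeR). Cyp2a5 stood at 237 ± 199.8 and 265 ± 113 CPM, a log2 fold change of 0.16 (adjusted p = 0.965). The change of Cyp2a5 under TAA minus that under saline was 2.27 and did not pass (adjusted p = 0.349), and that of Cyp2a4 was −0.69 (adjusted p = 0.879). Of the 50-base words in the Cyp2a4 transcripts 36.1% also occur in Cyp2a5, and reads that fit both genes were not counted, so the split of counts between them is uncertain.

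The handling of reactive products showed a few strong members in lists that otherwise did not pass. Aldh3a2 (ENSMUSG00000010025, chromosome 11, 61223417 to 61267464), the fatty aldehyde dehydrogenase of the endoplasmic reticulum, had 242, 427, 290.2 and 237 CPM against 48.1, 127, 57.8 and 44.9 CPM (2.11 ± 0.28, adjusted p = 0.00012), with SB + TAA 2 the highest control. It was the only member of 25 aldo-keto reductases and aldehyde dehydrogenases to pass. Cbr3 (ENSMUSG00000022947, chromosome 16, 93683215 to 93690990), a carbonyl reductase controlled by the oxidant sensor NRF2, had 49.9, 77.4, 46.3 and 22.8 CPM against 5.71, 9.08, 10.1 and 5.41 CPM (2.70 ± 0.47, adjusted p = 0.00329). It was the 1 member of 36 NRF2 and glutathione genes past the test, although 12 members had an unadjusted p under 0.05 upwards and 1 downwards. Nqo1, the reference NRF2 target, had a log2 fold change of 0.91 ± 0.31 and Srxn1 of 1.10 ± 0.32 (adjusted p = 0.286 and 0.172). Over all genes 4.41% had an unadjusted p under 0.05 upwards. Tkt (ENSMUSG00000021957, chromosome 14, 30548359 to 30574720), transketolase of the pentose phosphate pathway, rose narrowly and evenly, from 103, 96.7, 94.8 and 76.5 CPM to 200.5, 229.8, 187 and 155 CPM (1.06 ± 0.17, adjusted p = 0.00161), as 1 of 11 genes of NADPH supply.

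Abcc4 (ENSMUSG00000032849, chromosome 14, 118482692 to 118706219), which exports bile acid and drug conjugates across the sinusoidal membrane, had 41.5, 53.8, 29.1 and 16.1 CPM against 8.4, 7.89, 7.34 and 9.74 CPM. The control livers were tightly grouped and all below the 4 others (2.06 ± 0.32, adjusted p = 0.000981). It was 1 of 21 exporters and importers to pass, in a list with a median of 0.42 and 7 members at an unadjusted p under 0.05. Abcc3, another sinusoidal exporter, had a log2 fold change of 0.48 ± 0.22 (adjusted p = 0.515). The upstream 250 bases of Abcc4 (RefSeq, GRCm38.p6, chr14:118706220-118706469, minus strand) are shown because they hold the core of an antioxidant response element, the NRF2 motif TGACNNNGC, 25 bases before the start and on the opposite strand, in capitals.
Abcc4: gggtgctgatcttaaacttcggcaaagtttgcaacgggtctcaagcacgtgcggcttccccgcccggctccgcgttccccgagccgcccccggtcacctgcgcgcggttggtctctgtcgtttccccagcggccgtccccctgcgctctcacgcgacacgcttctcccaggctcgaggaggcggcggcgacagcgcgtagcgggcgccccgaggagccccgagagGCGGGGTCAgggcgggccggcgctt
The motif was searched on both strands in the 250 bases before the start of 42 of the 52 increased genes that had a RefSeq promoter. It occurred in 6 of them (14.3%), namely Abcc4, Cachd1, Fitm1, S100g, Slc13a3 and Slc22a27, and in 10.2% of all 32851 promoters. The FOXO motif TGTTTAC, bound by factors that AKT inactivates, occurred in 2 of 42 (4.76%; Apela and S100g) and in 3.17% of all promoters. A match is a description of the sequence only.

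**Figure D1:**
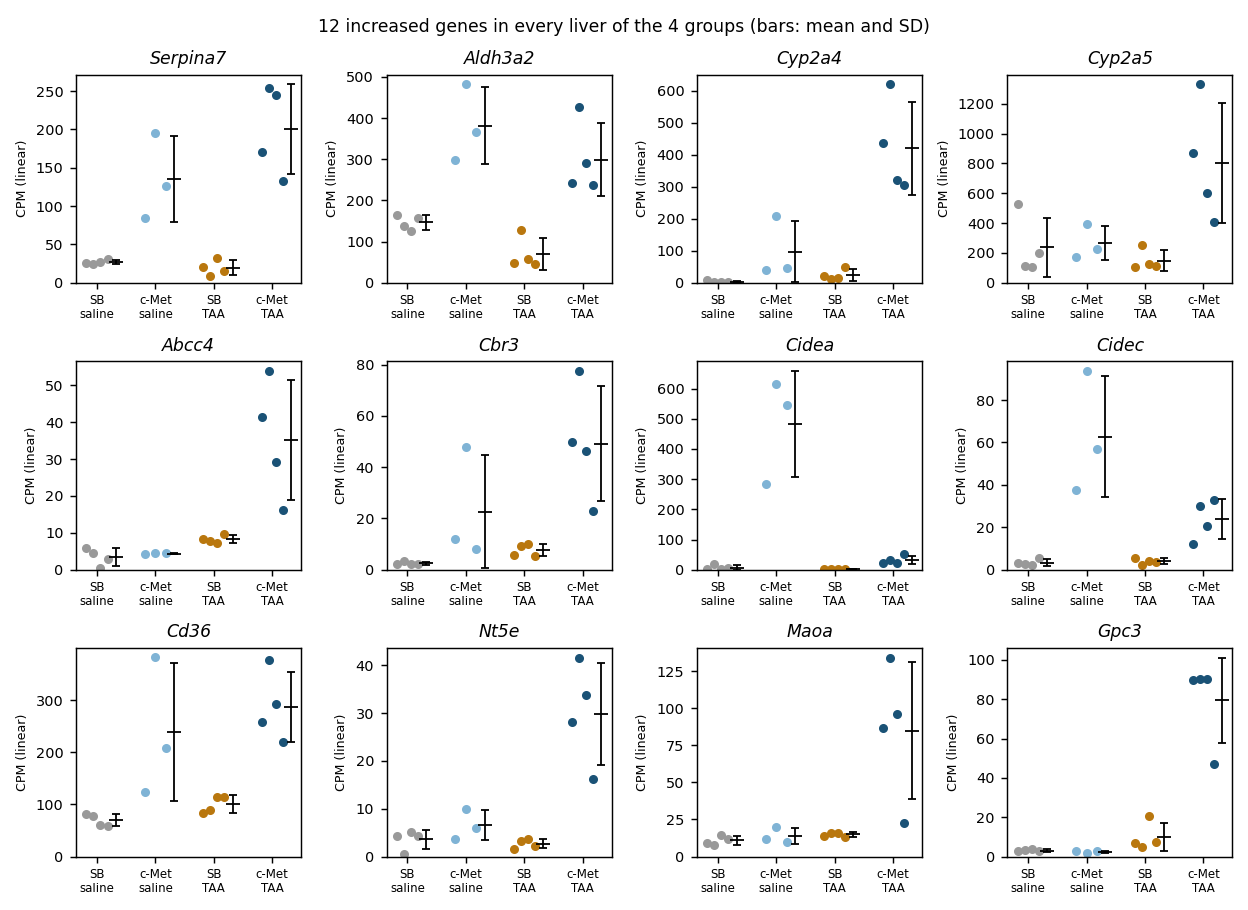
CPM on linear axes for 12 increased genes, 1 panel each, with 1 point per liver in SB + saline, SB/AKT/c-Met + saline, SB + TAA and SB/AKT/c-Met + TAA, and the mean and SD at the right of each group. In every panel the 4 SB/AKT/c-Met + TAA points lie above the 4 SB + TAA points, and the highest point of the Cidea, Cidec, Aldh3a2 and Cd36 panels is a saline liver with the oncogenes.

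Genes of lipid droplets, fatty acid uptake and glyceride synthesis were among the increases. Of 19 lipid droplet proteins 3 rose and none fell, with a list median of 0.34. Cidea (ENSMUSG00000024526, chromosome 18, 67343564 to 67367794) and Cidec (ENSMUSG00000030278, chromosome 6, 113424634 to 113435760), which fuse lipid droplets into larger ones, had 23, 31.7, 21.2 and 53 and 12.3, 29.9, 20.6 and 32.6 CPM in SB/AKT/c-Met + TAA. The SB + TAA livers had 2.69, 2.37, 3.67 and 2.7 CPM of Cidea and 5.71, 2.37, 4.28 and 3.79 CPM of Cidec. The groups did not overlap, at log2 fold changes of 3.46 ± 0.54 and 2.54 ± 0.44 (adjusted p = 0.00109 and 0.00329). limma-voom did not call either gene (adjusted p = 0.0707 and 0.0956). Fitm1, a droplet-forming protein that is abundant in skeletal muscle, had 31.1, 55.9, 42 and 33.3 CPM against 5.38, 6.32, 2.75 and 25.2 CPM. Its highest control was SB + TAA 4, and the log2 fold change was 1.99 ± 0.43 with that liver (adjusted p = 0.022) and 3.09 without it (adjusted p = 6.98e-05). The call was lost without SB + TAA 1 or 3 or SB/AKT/c-Met + TAA 2 or 3 (adjusted p up to 0.146). Fitm1 had a mean of 154 CPM in SB + saline and 199 CPM in SB/AKT/c-Met + saline. Its means in both TAA groups were lower, a difference that was not tested here. Plin2, the main hepatocyte droplet coat protein, had a log2 fold change of 0.60 ± 0.27 (adjusted p = 0.52).

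Pparg (ENSMUSG00000000440, chromosome 6, 115360951 to 115490399), the nuclear receptor that drives fat storage, had 4.23, 11.3, 7.67 and 9.13 CPM against 1.01, 1.18, 3.36 and 1.89 CPM (2.06 ± 0.38, adjusted p = 0.00679). Cd36 (ENSMUSG00000002944, chromosome 5, 17781690 to 17888801), the fatty acid translocase, had 259, 378, 293 and 219 CPM against 83, 88.4, 115 and 115 CPM (1.52 ± 0.28, adjusted p = 0.00679). Both calls were lost by a small margin without SB/AKT/c-Met + TAA 2 (adjusted p = 0.0505 for Pparg and 0.05 for Cd36). With only the groups compared in the fit, Fitm1 and Mogat1 were not called (adjusted p = 0.108 and 0.113). Mogat1 (ENSMUSG00000012187, chromosome 1, 78510991 to 78538173), which makes diacylglycerol, had 2.69, 7.04, 2.76 and 3.16 CPM against 1.01, 0.789, 0.917 and 0.27 CPM (2.36 ± 0.45, adjusted p = 0.00839, 0.0871 without SB + TAA 4). Pparg and Mogat1 were the 2 of 26 fatty acid and triglyceride synthesis genes that rose, and the list median was −0.02 (−0.07 without SB + TAA 4). Fasn and Scd1, which build and desaturate fatty acids and are classical AKT-responsive genes, had log2 fold changes of 0.10 ± 0.29 and 0.02 ± 0.27 (adjusted p = 0.964 and 0.998). None of 38 genes of the fatty acid oxidation list passed (edgeR, 6 at an unadjusted p under 0.05 upwards, none downwards). The nearest member was Vnn1, which encodes a pantetheinase and not an oxidation enzyme (1.47 ± 0.36, adjusted p = 0.0677, edgeR). None of 25 cholesterol genes passed (2 upwards and 3 downwards at an unadjusted p under 0.05, median −0.24). The adipocyte genes Adipoq, Plin1 and Lep had 0 counts in all 8 livers, and 0 of 7 other adipose markers passed (edgeR, 0 at an unadjusted p under 0.05).

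Genes of the perivenous zone, kept on by beta-catenin around the central vein, gave 4 increases and no decrease of 31, with a median of 0.35. Without SB + TAA 4, 2 of them passed and the median was 0.18. Slc13a3 (ENSMUSG00000018459, chromosome 2, 165405028 to 165473230), a sodium-coupled dicarboxylate carrier, had 16.5, 31.3, 29.8 and 16.5 CPM against 3.36, 4.34, 5.5 and 8.11 CPM (2.11 ± 0.35, adjusted p = 0.00212). Glul (ENSMUSG00000026473, chromosome 1, 153899944 to 153909723), glutamine synthetase of the innermost hepatocyte ring, had 98.7, 117, 101 and 65.3 CPM against 35, 39.1, 45.3 and 33.3 CPM. The groups were apart, at 1.32 ± 0.29 (adjusted p = 0.0324, 0.17 without SB + TAA 4). The call was also lost without SB + TAA 1 or SB/AKT/c-Met + TAA 1, 2 or 3 (adjusted p up to 0.179). In the saline livers Glul stood at 484 ± 154 CPM (SD, n = 4) with SB and 519 ± 48.3 CPM (SD, n = 3) with the oncogenes, so the means of both TAA groups were lower, a difference that was not tested here. Slc1a4, a neutral amino acid transporter that is also a target of the stress factor ATF4, had 9.99, 27.8, 21.8 and 10.5 CPM against 5.04, 3.55, 6.12 and 3.79 CPM (1.91 ± 0.39, adjusted p = 0.0147, 0.0871 without SB + TAA 4). The calls of Slc1a4, Orm3 and Mogat1 were also lost without SB/AKT/c-Met + TAA 2, and those of Slc1a4 and Orm3 without replicate 3. Cyp2a5 was the fourth of the zone's increases. Axin2 and Lgr5, direct beta-catenin targets, had log2 fold changes of −0.19 ± 0.33 and 0.13 ± 0.19 and did not pass (adjusted p = 0.929 and 0.897).

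Slc1a4 was also the 1 of 25 ATF4 and amino acid supply genes to pass. This list had the highest median of those with more than 20 members, 0.55 with all livers and 0.67 without SB + TAA 4. In it 9 members had an unadjusted p under 0.05 upwards and none downwards, where 4.41% and 4.5% of all genes did. Asns, asparagine synthetase, had a log2 fold change of 1.52 ± 0.55 and Gdf15, a stress-induced hormone, of 1.20 ± 0.33 (adjusted p = 0.343 and 0.133).

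**Figure D2:**
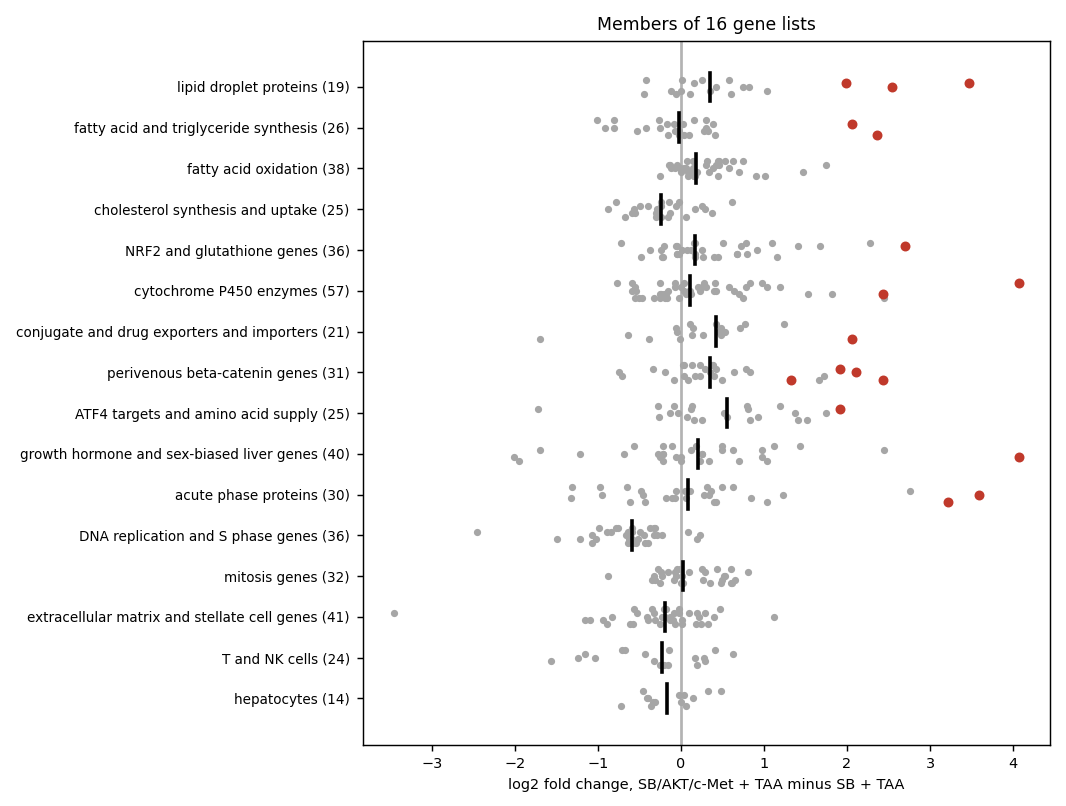
Log2 fold changes (SB/AKT/c-Met + TAA minus SB + TAA) of the members of 16 gene lists, with the number tested in brackets, 1 point per gene and a black line at the list median. Red points passed the adjusted p of the genome-wide fit, and members with 3 or fewer counts in a group are not drawn but enter the medians. The red points number at most 4 in a list, and the DNA replication list is the one centred furthest from 0, at −0.59.

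Serpina7 (ENSMUSG00000031271, chromosome X, 139079257 to 139085236), thyroxine-binding globulin of plasma, had the smallest p of all genes. It stood at 170.2, 254, 244.8 and 132 CPM against 21.2, 9.08, 32.7 and 15.7 CPM, a log2 fold change of 3.34 ± 0.32 (adjusted p = 6.97e-07). The adjusted p stayed between 2.78e-07 and 1.6e-05 when any 1 of the 8 livers was left out. Among 30 acute phase proteins the orosomucoid genes Orm2 and Orm3 rose and none fell. Orm2 (ENSMUSG00000061540, chromosome 4, 63362449 to 63365878) had 121, 233, 247 and 283 CPM against 30.9, 11.4, 34.9 and 17.9 CPM (3.21 ± 0.56, adjusted p = 0.00375). Orm3 (ENSMUSG00000028359, chromosome 4, 63356162 to 63359511) had 5.38, 21.5, 13.8 and 7.37 CPM against 1.01, 1.18, 1.22 and 0.541 CPM (3.59 ± 0.75, adjusted p = 0.017, 0.119 without SB + TAA 4). The rest of the list was divided, with 6 members at an unadjusted p under 0.05 upwards and 6 downwards and a median of 0.09. Lcn2, lipocalin 2, had a log2 fold change of 2.76 ± 0.88 and did not pass (adjusted p = 0.244). Of the 50-base words in the Orm2 transcripts 20.4% also occur in Orm1, and the counts of this family are uncertain to that extent.

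S100g, Nt5e and Maoa followed Serpina7 in the order of p. Nt5e (ENSMUSG00000032420, chromosome 9, 88327197 to 88372092), CD73, which makes adenosine from AMP at the cell surface, had 28, 41.5, 33.7 and 16.1 CPM against 1.68, 3.16, 3.67 and 2.16 CPM (3.47 ± 0.45, adjusted p = 0.00012). Maoa (ENSMUSG00000025037, chromosome X, 16619698 to 16687818), monoamine oxidase A, had 86.8, 134, 96 and 22.8 CPM against 14.1, 16.2, 15.9 and 13.3 CPM (2.51 ± 0.33, adjusted p = 0.00012). The controls of Maoa lay within a narrow range, and SB/AKT/c-Met + TAA 4 was the nearest above it. S100g (ENSMUSG00000040808, chromosome X, 162961992 to 162964599), the calcium-binding protein of the gut epithelium, had 16.9, 27.8, 28.5 and 20 CPM against 0.336, 0.789, 0 and 2.43 CPM (4.56 ± 0.56, adjusted p = 7.69e-05). It and the mucin gene Muc13 were the 2 of 19 gut and mucosal genes that rose. Muc13 had 4.61, 2.46, 2.76 and 1.76 CPM and 1 count in SB + TAA, a ratio of 35.6-fold (95% counting interval 5.97 to 1450). Its adjusted p was 0.0158, and up to 0.0631 without SB + TAA 3 or SB/AKT/c-Met + TAA 1, 2 or 3. Of the carriers Slc22a27 and Slc22a29, near relatives in the organic anion family, Slc22a27 had 7.3, 8.8, 5.83 and 8.78 CPM against 0.336, 0, 0 and 1.62 CPM (3.69 ± 0.72, adjusted p = 0.0106, 0.0505 without SB/AKT/c-Met + TAA 2).

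Of 7 further increases with a small p, 6 were at or near 0 in the SB + TAA livers. Krt79, a keratin, had 1.54, 3.17, 7.06 and 1.76 CPM and Apela, a peptide ligand of the apelin receptor, had 8.07, 4.22, 8.28 and 2.11 CPM, and both had 0 counts in the 4 SB + TAA livers. They were at least 14.8-fold and 23.8-fold higher against the limit of 3 counts over the group (adjusted p = 0.000981 and 0.00155). AC152414.2, a long non-coding RNA, had 9.99, 5.63, 4.29 and 0.702 CPM and likewise 0 counts in SB + TAA, at least 20.9-fold higher (adjusted p = 0.0028). Bglap3 (ENSMUSG00000074489, chromosome 3, 88368616 to 88372743), an osteocalcin-related gene, had 25.7, 31.3, 14.4 and 23.2 CPM against 0.672, 0.789, 0.306 and 2.16 CPM (4.46 ± 0.73, adjusted p = 0.00177). Nxpe2 had 5.38, 9.15, 12.9 and 4.91 CPM against 0.672, 1.97, 0.612 and 0.27 CPM (3.27 ± 0.48, adjusted p = 0.000505). Tenm3, a teneurin adhesion receptor, had 6.15, 5.98, 4.6 and 5.27 CPM against 0.672, 1.18, 1.83 and 0.811 CPM (2.24 ± 0.37, adjusted p = 0.00177). Nxpe2 and Tenm3 were not low without injury. Their means were 15.7 and 7.17 CPM in SB + saline and 22.1 and 15.4 CPM in SB/AKT/c-Met + saline. The means of both TAA groups were lower for both genes, a difference that was not tested here. The pseudogene 9030619P08Rik had 33.4, 44.3, 57.4 and 45.6 CPM against 9.41, 5.13, 20.8 and 11.4 CPM (1.93 ± 0.28, adjusted p = 0.000505). All 7 were called in each of the fits that left out 1 of the 8 livers.

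Among 24 fetal liver and liver cancer markers 1 rose. Gpc3 (ENSMUSG00000055653, chromosome X, 52272426 to 52613950), glypican 3, a cell surface proteoglycan of fetal liver and hepatocellular carcinoma, had 89.9, 90.1, 90.5 and 47 CPM against 6.72, 4.74, 20.8 and 7.57 CPM. Replicate 4 with the oncogenes was the lowest of its group and still above all 4 controls (2.97 ± 0.57, adjusted p = 0.00839, 0.0433 without SB + TAA 4), and limma-voom did not call the gene (adjusted p = 0.128). Afp, the other classical marker, had 62.6, 50.3, 108 and 52 CPM against 35.3, 19.7, 33.9 and 55.2 CPM (0.91 ± 0.62, adjusted p = 0.699), in groups that overlap. St14, matriptase, a membrane protease that can activate the HGF precursor, was the 1 of 17 genes of the HGF and MET axis and the 1 of 25 cholangiocyte genes that rose. It had 4.61, 3.87, 4.6 and 4.21 CPM against 0.336, 0.395, 0.612 and 0.541 CPM (3.06 ± 0.67, adjusted p = 0.0267), and the call was kept in 1 of the 8 fits without a liver (adjusted p up to 0.116). The biliary keratins Krt7 and Krt19 had log2 fold changes of −0.28 and 0.09 (adjusted p = 0.966 and 0.998).

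No gene of the DNA replication list passed the test (0 of 36, edgeR), yet 32 of 36 had a negative log2 fold change and 11 an unadjusted p under 0.05, all downwards, where 4.5% of all genes did. The list median was −0.59 with all livers and −0.49 without SB + TAA 4, against −0.01 for all genes. Pcna, the polymerase clamp, had 9.99, 10.2, 11.7 and 17.6 CPM against 34.6, 12.6, 22 and 31.1 CPM (−1.03 ± 0.25, adjusted p = 0.0691), and the helicase subunit Mcm5 had 1.54, 4.22, 4.6 and 3.86 CPM against 15.1, 3.95, 6.12 and 8.38 CPM (−1.22 ± 0.48, adjusted p = 0.423). The groups overlap for both genes. The summed level of the whole list did not overlap, at 324.6 to 394.9 CPM with the oncogenes and 429.1 to 638.6 CPM without. Among all lists, the hepatocyte sum was also lower without overlap. The sum of the ATF4 list was higher without overlap, at 599.7 to 872.6 CPM against 461.7 to 563 CPM. The sums of the other lists overlapped, and no sum was tested. None of 32 mitosis genes passed either, 0 of them at an unadjusted p under 0.05, with a median of 0.02 (0.31 without SB + TAA 4). Mki67, the proliferation antigen, had a log2 fold change of −0.05 ± 0.44 (adjusted p = 0.998). Of 28 MYC target and ribosome biogenesis genes none passed (edgeR, 2 at an unadjusted p under 0.05, both downwards, median −0.23). Of 35 oxidative phosphorylation genes 32 had a negative log2 fold change, with a median of −0.16 and none past the test (edgeR, 2 at an unadjusted p under 0.05, both downwards).

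The summed levels of stromal and immune marker genes overlapped between the groups. Extracellular matrix and stellate cell genes summed to 1075 to 1409 CPM with the oncogenes and 1090 to 1709 CPM without (0 of 41 passed, edgeR, 1 in each direction at an unadjusted p under 0.05). The list median was −0.19 with all livers and turned to 0.10 without SB + TAA 4, which held the highest sum, while SB + TAA 1 to 3 had sums of 1090 to 1392 CPM. Col1a1 had a log2 fold change of −0.25 ± 0.59. Monocyte-derived macrophage genes summed to 22760 to 25780 CPM and 17440 to 28570 CPM (0 of 20), Kupffer cell genes to 583.1 to 802.9 CPM and 574.2 to 695.1 CPM (0 of 17), and T and NK cell genes to 48.8 to 85.3 CPM and 52.1 to 116.5 CPM (0 of 24). An unadjusted p under 0.05 was reached by 2 macrophage genes upwards and 2 downwards, by 5 Kupffer cell genes, all upwards, and by 2 T and NK cell genes, both downwards. The shares of all genes were 4.41% upwards and 4.5% downwards. A p that misses the threshold does not show that these genes were equal. Themis, a T cell gene that is not in the T and NK list, was called higher. It had 3.84, 6.69, 3.99 and 3.16 CPM with the oncogenes against 0, 1.58, 0 and 0 CPM (3.59 ± 0.83, adjusted p = 0.0438, edgeR). The call of Themis was kept in 1 of the 8 fits without a liver (adjusted p up to 0.247).

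Of the 25 called decreases 24 had their highest value in SB + TAA 4. In 22 of them more than 90% of the summed CPM of the 4 control livers came from that liver, and 19 are members of the skeletal muscle list (19 of 31 down, none up, median −8.26, and −0.31 without SB + TAA 4). The 5 with the largest fitted decrease were the myosins Myh1 and Myh4, triadin (Trdn), telethonin (Tcap) and the light chain Myl1. In SB + TAA 1 to 4 they had 0, 0.395, 0.612 and 508 CPM (Myh1), 0, 0.395, 0.612 and 259 CPM (Myh4), 0.336, 0, 0 and 120.4 CPM (Trdn), 0, 1.18, 0.917 and 540.1 CPM (Tcap) and 0, 0.395, 0 and 321 CPM (Myl1). Their highest value in a liver with the oncogenes was 0.614 CPM, for Tcap. Without SB + TAA 4 none of these 5 was called (adjusted p from 0.751 to 0.993), and 8 of the 25 decreases had a log2 fold change above 0.

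Gm12603 was the 1 decrease called both with and without SB + TAA 4. It is a long intergenic non-coding RNA (ENSMUSG00000085183, chromosome 4, 89050308 to 89084614, GRCm38). It had 13.1, 0.395, 10.4 and 10.8 CPM in SB + TAA and 0.384, 0.352, 0.307 and 0.351 CPM with the oncogenes, where each value is 1 count. SB + TAA 2 also had 1 count, and the other 3 controls were high. In 3 of the 25 decreases (Gm12603, Gmpr and Srl) the CPM values did not overlap, which for Gm12603 rests on a difference in library size alone. The log2 fold change was −4.50 ± 0.83 (adjusted p = 0.00784) and −4.38 without SB + TAA 4 (adjusted p = 0.0189). It was not called without SB/AKT/c-Met + TAA 2 or 3 (adjusted p up to 0.0505), nor by limma-voom (adjusted p = 0.128). Gmpr, GMP reductase, had 3.02, 1.58, 1.83 and 9.47 CPM against 0.768, 0.352, 0.307 and 0.351 CPM (−3.11 ± 0.72, adjusted p = 0.0435), with SB + TAA 4 the highest, and was not called without it (−2.20, adjusted p = 0.506). Tsc22d4 had an adjusted p under 0.05 and a log2 fold change within 1, with 13.8, 13.4, 13.8 and 19 CPM against 26.6, 26.8, 27.8 and 31.4 CPM (−0.91 ± 0.18, adjusted p = 0.0124, 0.0701 without SB + TAA 4). The 4 genes called only without SB + TAA 4 were Rcan2, Tuba8, Endod1 and Rhoq. Rcan2 had 15.4, 8.44, 8.59 and 5.27 CPM against 0.672, 1.58, 0.917 and 22.4 CPM and Tuba8 18.1, 19.4, 18.4 and 12.6 CPM against 3.02, 4.74, 5.5 and 28.9 CPM, so both were highest in the liver with muscle transcripts. Without it their log2 fold changes were 3.13 and 1.94 (adjusted p = 6.98e-05 and 0.00247).

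**Figure D3:**
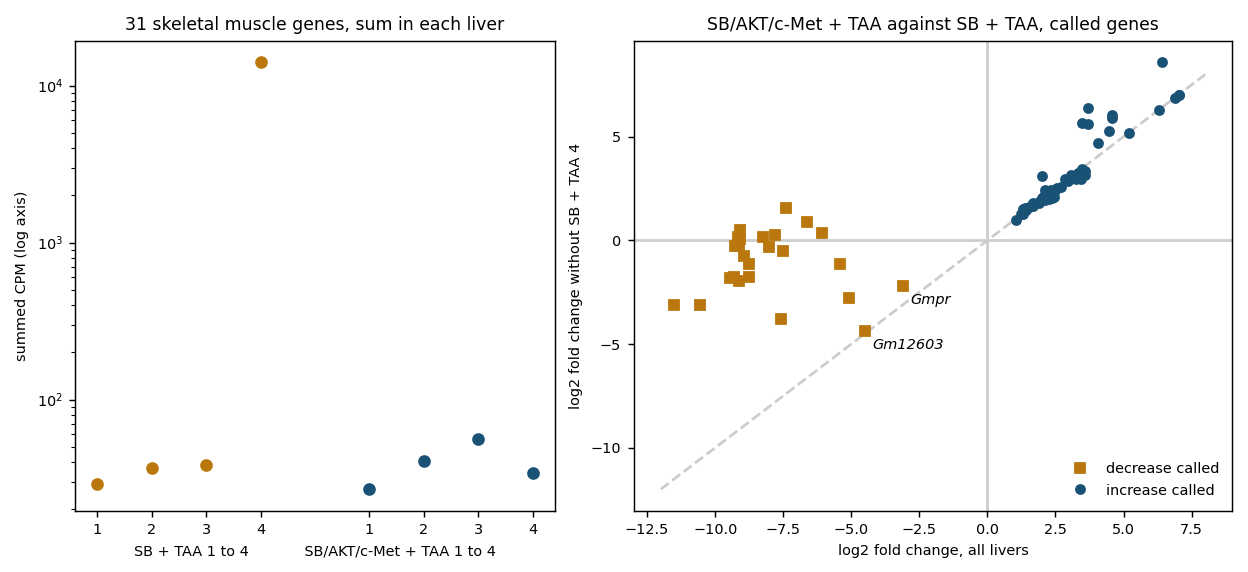
Left, summed CPM of 31 skeletal muscle genes (log axis) in each of the 8 livers, at 14100 in SB + TAA 4 and 26.9 to 55.8 in the others. Right, log2 fold changes of the 77 called genes with all livers (x axis) and without SB + TAA 4 (y axis), decreases as squares and increases as circles, with a dashed line of equality. All 52 increases lie above 0 on both axes, and 8 of the 25 squares lie above 0 on the y axis. Fold changes of genes with few counts depend on the prior count.

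The same plasmids were also given without TAA, in livers that share no animal with those above. SB/AKT/c-Met + saline against SB + saline had 120 called genes, 112 higher (0.578%) and 8 lower. Of the 52 genes raised under TAA, 45 had a positive log2 fold change in saline, and 17 passed the test there, all upwards, where 0.599% of all genes rose by adjusted p. The saline median of all genes was 0.02. Human MET, which the plasmid itself brings in, is counted in the 52, the 45 and the 17. The droplet genes Cidea and Cidec were also among the 17, with 482 ± 175 CPM (SD, n = 3) against 7.16 ± 7.56 CPM (SD, n = 4) for Cidea and 62.7 ± 28.5 CPM against 3.35 ± 1.54 CPM for Cidec. Their saline log2 fold changes were 6.16 and 4.21 (adjusted p = 9.33e-08 and 1.26e-05). Serpina7 (2.32), Aldh3a2 (1.38), Cbr3 (3.19), Cd36 (1.77), Mogat1 (2.64) and Ermp1 (1.16) also passed in saline. Genes with little difference there included Slc13a3 (−0.24), Gpc3 (−0.37), Maoa (0.33), Abcc4 (0.36) and Glul (0.10), none past the test (adjusted p from 0.826 to 0.971).

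Whether the effect of the oncogenes under TAA differed from that under saline was tested gene by gene. None of the 52 increases was called in that test (edgeR, 27 at an unadjusted p under 0.05, and also 0 by limma-voom and by DESeq2), and the nearest was Nxpe2 (difference 2.77, adjusted p = 0.11). With only the groups compared in the fit, 3 were called: Nxpe2, Slc13a3 and Gpc3. With a block for the replicate number added to that fit, 10 were called, these 3 among them. Over all genes the fit of all 6 groups called 2 (0.0103%), and 1638 had an unadjusted p under 0.05. Ccl5, a chemokine of T and NK cells, had 14.2, 14.8, 17.2 and 7.72 CPM with the oncogenes and 19.2, 16.2, 55.4 and 29.2 CPM without under TAA, in ranges that overlap through replicate 3 with the oncogenes and SB + TAA 2. In saline it stood at 20.4 ± 8.81 CPM (SD, n = 3) with and 2.82 ± 2.07 CPM (SD, n = 4) without the oncogenes. The log2 fold changes of −1.16 and 2.91 differed by −4.06 (adjusted p = 0.00853). Gsta1, a glutathione transferase, had 166, 210.1, 182 and 169.9 CPM against 271, 104, 371 and 449 CPM under TAA, also overlapping, and 126 ± 120.0 CPM against 14.5 ± 3.02 CPM in saline. Its log2 fold changes of −0.72 and 3.12 differed by −3.84 (adjusted p = 0.0235). limma-voom called neither gene. Gsta1 has close relatives, and the split of counts among them is uncertain.

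**Figure D4:**
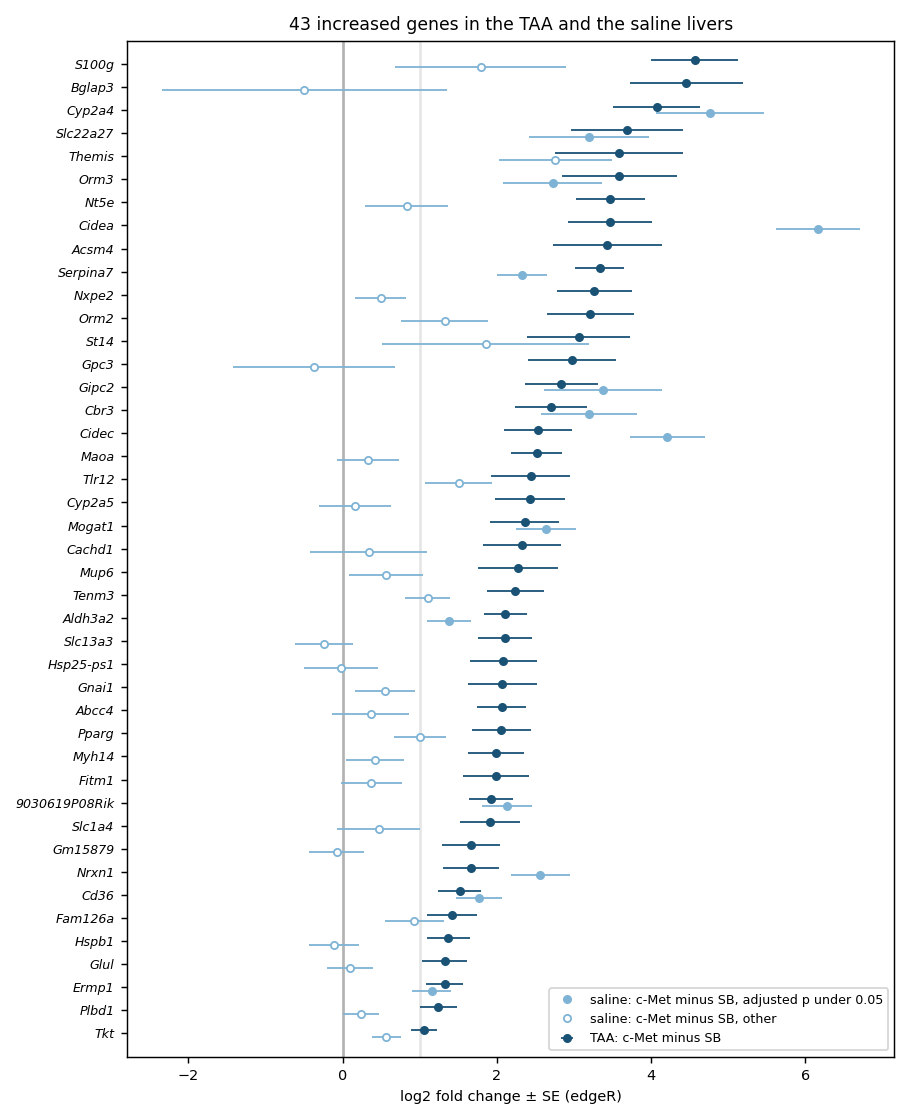
Log2 fold changes ± SE (edgeR) of the 43 increased genes with more than 3 counts in SB + TAA, dark for SB/AKT/c-Met + TAA minus SB + TAA and light for SB/AKT/c-Met + saline minus SB + saline, filled where the saline contrast passed. Cidea and Cidec lie further right in saline, Slc13a3, Gpc3 and Maoa lie near 0 there, and Acsm4, with no counts in either saline group, has no light point.

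The 4 livers with the oncogenes were not alike. Among the 51 mouse genes called higher, SB/AKT/c-Met + TAA 2 held the highest value for 30, replicate 3 for 11, and replicates 1 and 4 for 5 each. The lowest value was in replicate 4 for 27 genes and in replicate 1 for 16. Replicate 4 had the most human MET counts (31) and replicate 1 the fewest (2). Left out alone, SB/AKT/c-Met + TAA 2 reduced the called genes to 25, all higher, and SB + TAA 2 raised them to 182, 94 higher. Distances between the 2 groups without SB + TAA 4 averaged 2.12, from 1.97 to 2.26, and distances among the 4 livers with the oncogenes averaged 1.87, from 1.75 to 1.93.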

How the data were processed

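Total RNA of 24 mouse livers was sequenced, and the 8 livers of 2 groups are described. For the authors' tables, reads were split by sample (Sabre), mapped to GRCm38 plus human NRAS and MET (STAR), reduced to unique molecules by their tags, and assigned to genes in the forward direction (featureCounts), leaving out records of low mapping quality. The deposited values are these counts, not normalized. Of the records of the 8 libraries, 19.9% to 23.1% were assigned to a gene by the authors' deposited summary counts, and 43.95% to 49.19% fell below the mapping quality.

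Genes reaching 0.5 CPM in 2 or more of the 24 libraries were scaled by TMM and fitted in 1 model of 6 group means with edgeR 4.0.16 in R 4.3.3 (quasi-likelihood F test, Benjamini-Hochberg). A called gene has an adjusted p under 0.05 and an absolute log2 fold change over 1. "Rose" and "fell" for list members rest on the adjusted p alone. Lists are described by counts and medians, without a test. Against groups with 0 counts a lower bound uses 3 counts over the group, and ratios with 1 to 3 counts carry a 95% exact binomial interval that covers counting error only. p-values measure the spread between livers of different mice.

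Named genes are the transgene and its mouse forms, the 16 genes with the smallest adjusted p, called genes in a list, decreases called without SB + TAA 4 with the 5 largest others, up to 4 leading or well-known members per list, and genes called between the TAA and saline contrasts. Rcan2, Tuba8, Endod1, Rhoq, Tsc22d4, Slc22a27, Slc22a29, Ermp1, Themis and the adipocyte genes were chosen after their values were seen. Members and lists were chosen with earlier results of these data known. Alternatives were limma-voom (limma 3.58.1), DESeq2 1.42.0, other scalings and filters, a robust spread, other call rules, fewer groups, a replicate block and the omission of each liver. The fit was tested on simulated data. Promoters are from RefSeq on GRCm38.p6, coordinates from the deposited tables and gene types from GENCODE M21. Counts from the AKT plasmid were not analysed here.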

Additional observations from a re-analysis of the deposited data

Results flagged for a closer look

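Among 144 sets of 4 livers, 23 had 1 liver far from the other 3 (gap over range above 0.829). For unselected values chance gives this in about 1 set in 20. Most sets here are called or named genes, several chosen after their values were seen, so that rate is no reference for the 23. In SB + TAA 4 these were the summed skeletal muscle list at 14100 CPM, and the CPM of Myh1 (507.9), Myh4 (258.6), Trdn (120.4), Tcap (540.1), Myl1 (321.0), Tuba8 (28.9), Rcan2 (22.4), Fitm1 (25.2), Cyp2b9 (0.541), Muc13 (0.270), Slc22a29 (0.811) and Fam19a2 (0.541), the last 4 from 1 to 3 counts. In SB + TAA 2 they were Aldh3a2 (127.1 CPM), Cyp2a5 (254.2 CPM) and Themis (1.58 CPM). In SB/AKT/c-Met + TAA they were Gmpr (0.768 CPM) in replicate 1, Mogat1 (7.04 CPM) in replicate 2, Shc2 (0.920 CPM) and Tcap (0.614 CPM) in replicate 3, and Gpc3 (47.0 CPM), Hspb1 (12.99 CPM) and Myl1 (0.351 CPM) in replicate 4.

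The effect of the oncogenes differed between TAA and saline in a test of the difference itself for Ccl5 (log2 difference −4.06) and Gsta1 (−3.84). Leaving out 1 of the 15 livers of the 4 groups gave adjusted p from 0.0017 to 0.0567 for Ccl5 and from 0.0017 to 0.267 for Gsta1, the last without SB/AKT/c-Met + saline 2.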

How the results depend on the processing

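The called genes (77: 52 higher, 25 lower) numbered 40 (38 and 2) with limma-voom, 331 (148 and 183) without a filter on low counts, 43 with a robust spread (2 lower) and 132 (95 higher) with the replicate block. The 25 decreases became 5 with DESeq2, 3 with filterByExpr and 2 with only the groups compared. Leaving out 1 liver gave 25 to 182 called genes, 25 to 94 higher and 0 to 88 lower. Without SB/AKT/c-Met + TAA 2 or 3 the increases were 25 and 34, and without SB + TAA 2 they were 94. The comparison of the TAA with the saline contrast (2 genes) gave 0 with limma-voom and with a robust spread, 17 with DESeq2, 217 without a filter, 21 with only the groups compared, 112 with the replicate block, and 0 to 18 without 1 liver. The causes were not tested. The titles number the livers within a group and do not say whether equal numbers mark a pair. Same-numbered livers of the 2 groups had a mean correlation of deviations from the group mean of 0.0373 and others of −0.0124. Such deviations sum to 0 within a group, which ties these 2 means together, so they cannot decide whether livers are paired. The block called 47 of the 52 increases, without Mogat1, Tlr12, Shc2, Fam126a and Fam19a2. Of the 52, 10 were called in the comparison of the TAA with the saline contrast under the block (Nt5e, Maoa, Nxpe2, Cidea, Bglap3, Slc13a3, Cyp2a5, Gpc3, Glul and Mup6), 3 with only the groups compared and 0 with all 6 groups and no block.

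Of the 52 increases, 51 were called by DESeq2, 34 by limma-voom, 40 with only the groups compared and 22 in all 14 alternatives. Leaving out 1 liver, the log2 fold change of 8 decreases ranged from negative to a highest value, above 0, without SB + TAA 4: -9.78 to 0.066 (Tnnc2), -8.25 to 0.25 (Acta1), -11.43 to 0.49 (Ckm), -6.53 to 0.34 (Mylpf), -10.12 to 0.15 (Mb), -9.20 to 0.17 (Fabp3), -7.07 to 0.88 (Cox6a2) and -8.99 to 1.57 (Ryr1). That of Akt1 ranged from -0.11 to 0.10. Other scalings moved the median of all genes by under 0.1. At the depth of these libraries, genes under about 1 CPM rest on a few counts.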
